A study of Mus musculus with 6 samples.

Results

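The genes described here encode the tight junctions, adherens junctions, desmosomes and polarity complexes of an epithelial cell, with a pair of splicing regulators typical of epithelia. The set comprised 38 genes listed by symbol, of 12364 genes that carried a probe set of their own in the table. Each was represented by its brightest probe set, the one with the highest mean over the 6 arrays, and all 38 were found. Signals are log2 values of an Affymetrix whole-genome mouse array, so a difference of 1 is a doubling. The cells were mpkCCD clone 11, an immortalised line of mouse kidney epithelium from the cortical collecting duct, and all of it is 1 clone. They were grown on membrane supports as a polarized layer until the transepithelial resistance was at least 5 kohm per cm2. A group of 3 cultures then received 0.1 nM dDAVP for 5 days, and 3 control cultures received vehicle for the same time. dDAVP, or desmopressin, mimics vasopressin at its V2 receptor. The comparison asks whether the transcripts of the junctional machinery differed after this exposure. Whether the replicates came from separate passages is not given, so p-values measure only the spread between these 6 samples.

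A tight epithelium seals the space between its cells with strands of claudins, membrane proteins whose extracellular loops set which ions pass. Occludin, the tricellular proteins and JAM-A lie in or beside these strands, and the ZO proteins and cingulin anchor them to actin. Below them E-cadherin and the catenins form the adherens belt, and desmosomes tie neighbouring cells to each other's keratin filaments. The Crumbs and PAR complexes place the tight junction at the border of the apical membrane. In the collecting duct these structures keep the hypotonic or acidic lumen apart from the interstitium, and vasopressin is best known there for moving water and sodium through the cells rather than between them.

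No member passed the test. In limma, with p-values adjusted by the Benjamini-Hochberg method over 28225 probe sets, 0 of 38 genes had an adjusted p below 0.05, against 0.291% of all genes. The unadjusted p was below 0.05 in 5 members, against 7.8% of all genes. Of these, 3 were higher with dDAVP (all genes: 5.51%) and 2 were lower (all genes: 2.3%). In 7 members the 3 dDAVP values lay entirely above or below the 3 vehicle values, as in 15.2% of all genes. They were higher in 4 (all genes: 10.1%) and lower in 3 (all genes: 5.13%). The median log2 change was -0.01, with 18 positive and 20 negative values, beside 0.01 for all genes. The members' changes ran from -0.17 to 0.32, and the median of their absolute sizes was 0.055, beside 0.058 for all genes.

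For the values as deposited, the limma intervals bounded each change. They carry no uncertainty about the scaling between arrays. With arrays scaled to the hybridisation control probe sets, the members' median log2 change was 0.14. Under that scaling the Cgn change was 0.30, beyond the upper limit of 0.28 of its interval here. The 95% interval lay within a 1.5-fold change in either direction for all 38 members, as for 98.4% of all genes, and within a 1.2-fold change for 26 members (68.4%, beside 61.8% of all genes). For comparison Aqp2, the water channel gene that vasopressin induces, changed by 4.15 ± 0.063 (SE, limma adjusted p = 1.66e-07) on the same arrays. Its values were 6.65, 6.72 and 6.72 in vehicle and 10.93, 10.79 and 10.82 in dDAVP cells.

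**Figure D1:**
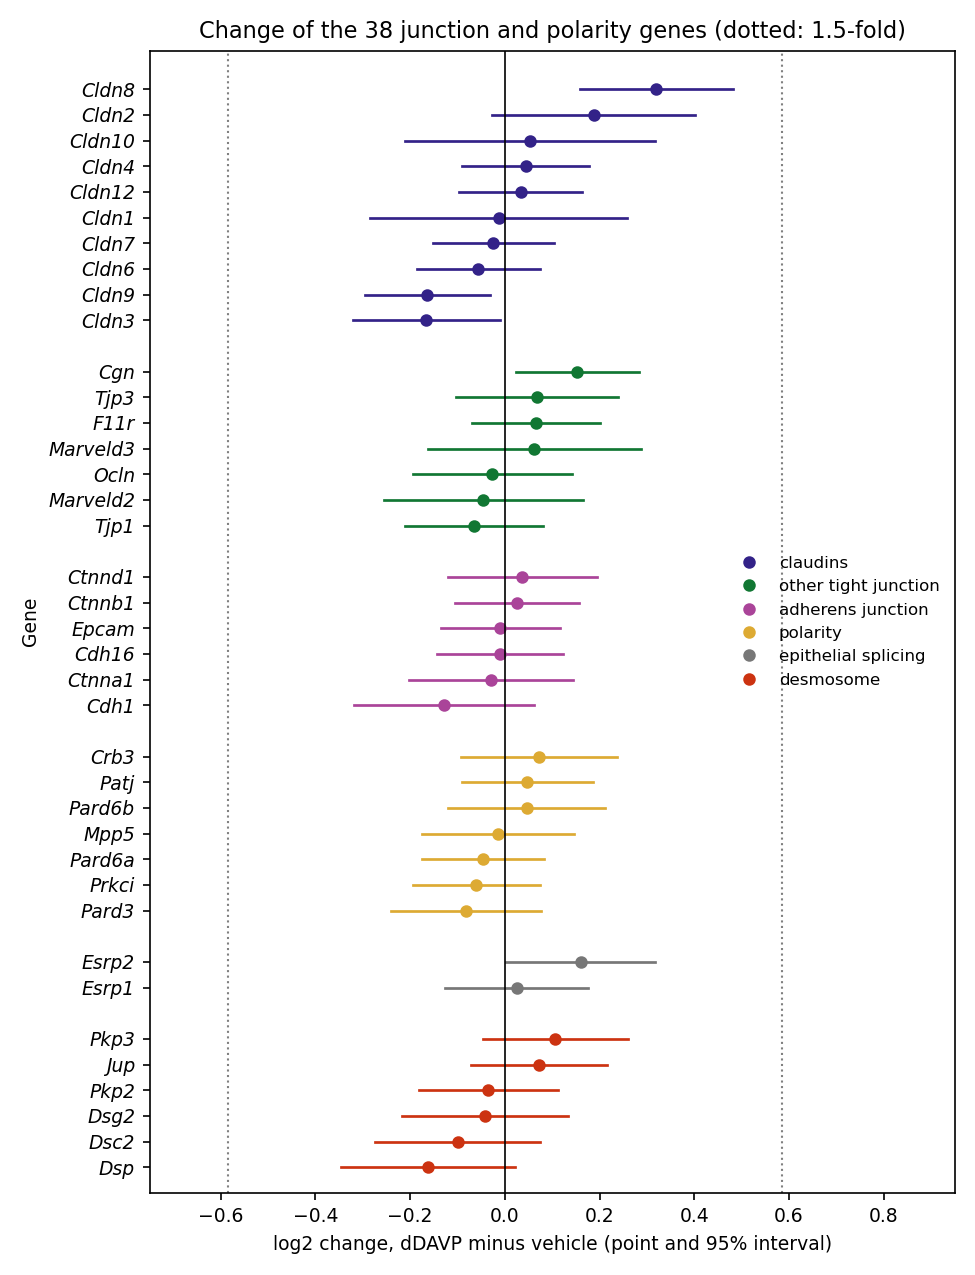
Log2 change (dDAVP minus vehicle) of the 38 genes by role, as points with 95% intervals of the limma fit, 3 arrays per group. Dotted lines mark a 1.5-fold change, and all 38 intervals lie between them, with Cldn8 farthest from 0 at 0.32.

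**Figure D2:**
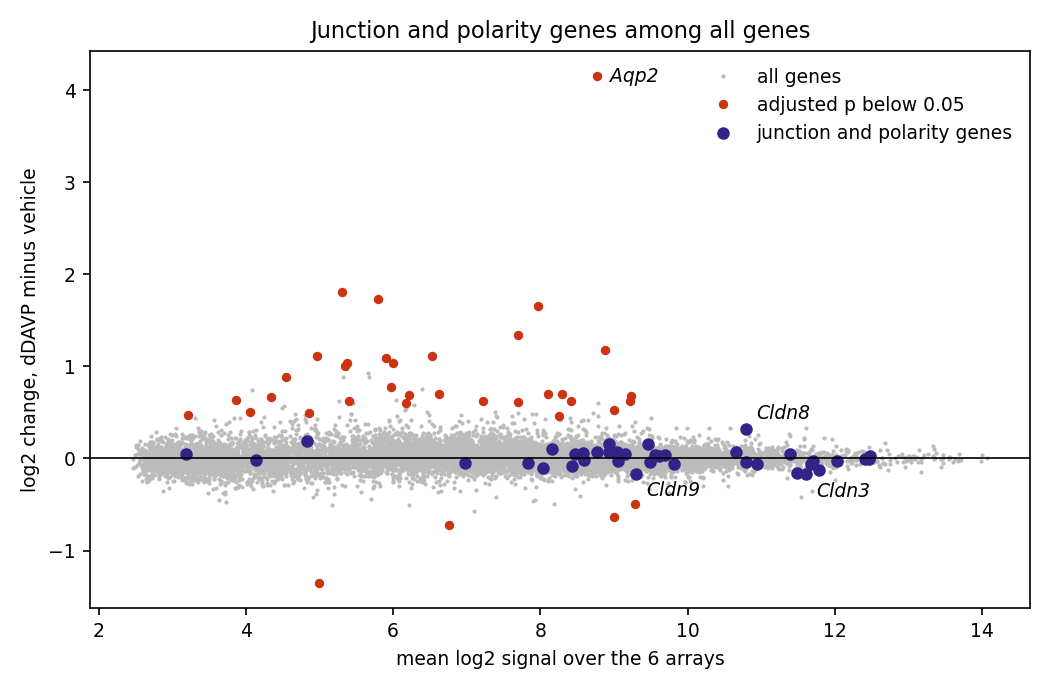
Log2 change (dDAVP minus vehicle) against mean log2 signal over the 6 arrays for 12364 genes (grey), the genes with a limma adjusted p below 0.05 (red) and the 38 junction and polarity genes (blue). The members run from -0.17 to 0.32, while Aqp2 lies at 4.15.

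The array medians spanned 0.043 log2 units, and any 2 arrays correlated at 0.996 to 0.998 across probe sets. Vehicle replicate 2 was the lowest array of its group for 19 of the 38 members (31.6% of all genes). Vehicle replicate 1 was the highest for 21 (27.7%) and vehicle replicate 3 for 3 (29.7%), while dDAVP replicate 1 was the highest of its group for 21 (34.3%). The epithelial markers Cdh1 and Epcam had means of 11.79 and 12.47. Of the 7 measured mesenchymal markers, Fn1 (11.31), S100a4 (7.35), Twist1 (5.64), Zeb1 (4.39), Snai1 (4.04) and Zeb2 (3.70) ranged from bright to dim, and Fap (3.06) was the dimmest. As a reference for dim signals, 10 probe sets of olfactory receptor genes, taken here as silent in this line, had a mean of 3.18 and a 95th percentile of 3.56. Of the members, 37 lay above that percentile, as did 11216 of all 12364 genes.

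The 10 claudins of the set fell into a bright and a dim group by signal. Ordered by the mean over 6 arrays, Cldn7 (11.70), Cldn3 (11.61), Cldn4 (11.39), Cldn6 (10.94), Cldn8 (10.79), Cldn12 (9.56) and Cldn9 (9.30) came first. After a gap of 4.47 log2 units followed Cldn2 (4.83), Cldn1 (4.14) and Cldn10 (3.18). The gap belongs to this set only. Of other measured claudins, Cldn23 (7.70) lay inside it, while Cldn22 (4.93), Cldn15 (4.42) and Cldn14 (3.97) were dim. Cldn3, Cldn4, Cldn7 and Cldn8 are the claudins best known from the collecting duct, and Cldn6 and Cldn9 are known mainly from immature epithelia. Cldn2 forms the cation and water pore of the proximal tubule, and Cldn10 forms pores of the proximal tubule and the thick ascending limb. The Cldn10 values, 3.25, 3.10 and 3.11 in vehicle and 3.40, 2.96 and 3.27 in dDAVP cells, did not exceed the olfactory receptor percentile. Probe sets differ in how well they bind their target, so this is an order of signals and not of transcript numbers.

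Most neighbours in this order were separated on every array. Of the 9 adjacent pairs, only Cldn7 with Cldn3 and Cldn6 with Cldn8 had overlapping values over the 6 arrays. Cldn7 exceeded Cldn3 on 4 of 6 arrays. Cldn8 was below Cldn6 on all 3 vehicle arrays (above on 0) and above it on 2 of 3 dDAVP arrays. Cldn8 was therefore at rank 5 by the vehicle mean and at rank 4 by the dDAVP mean, Cldn6 took the other rank, and the remaining claudins kept theirs. With all probe sets of a gene averaged, in place of the brightest, 8 of the 10 kept their rank.

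**Figure D3:**
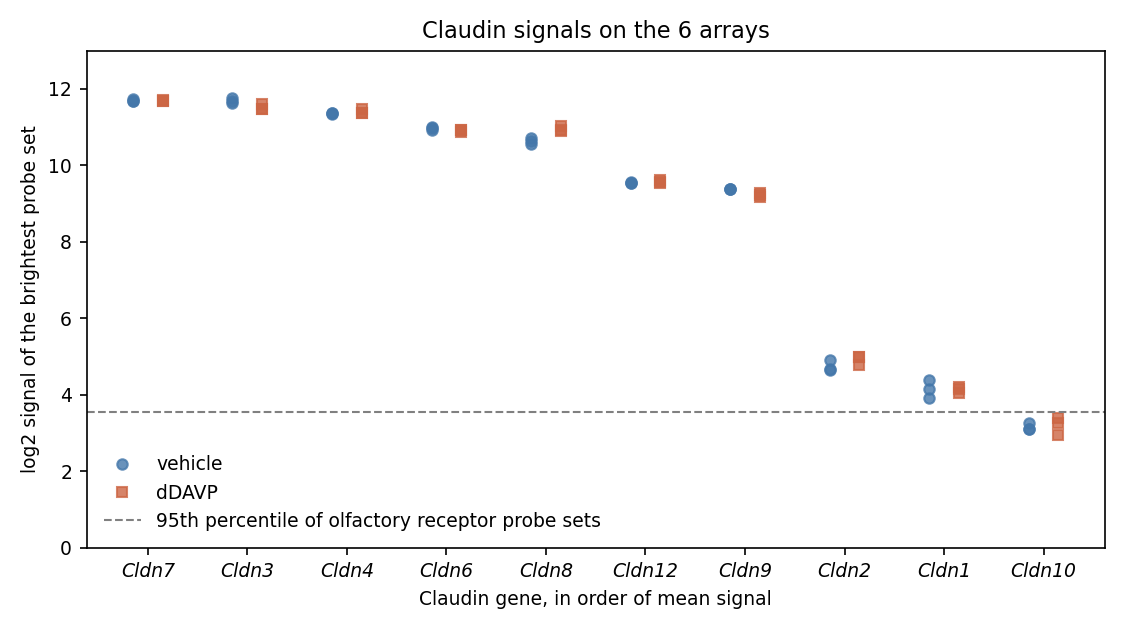
Log2 signal of the brightest probe set of each claudin on the 3 vehicle arrays (circles) and the 3 dDAVP arrays (squares), in order of mean signal. The dashed line is the level exceeded by few olfactory receptor probe sets (their 95th percentile, 3.56), and 7 claudins lie above 9 while 3 lie below 5.

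Cldn8, a claudin that works with Cldn4 in the chloride-selective paracellular path of the collecting duct, had the largest change and the smallest p among the members. Its only probe set measured 10.71, 10.56 and 10.64 in vehicle cells and 11.04, 10.93 and 10.89 in dDAVP cells. All 3 dDAVP values lay above all 3 vehicle values. The means were 10.63 ± 0.075 and 10.95 ± 0.080 (SD, n = 3), a 1.25-fold difference (95% interval 1.12 to 1.40) of 0.32 ± 0.070 log2 units (SE). The unadjusted limma p was 0.00195 and the adjusted p was 0.227, so it did not pass. It did pass in limma with a variance prior that follows the signal level (adjusted p = 0.0244) and with arrays scaled to their hybridisation controls (0.47, adjusted p = 0.0235). Over all alternatives its limma adjusted p ran from 0.0235 to 0.944, the highest with arrays scaled to the poly-A controls.

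Intercalated cells are the acid- and base-secreting neighbours of principal cells. The mean of 3 of their markers was higher on the dDAVP arrays, though Aqp6 among them was lower. That mean level of the 3 measured markers of 7 listed ran from 6.52 to 6.58 in vehicle and from 6.65 to 6.85 in dDAVP arrays, with 0 of the 3 passing in limma. The unadjusted p was below 0.05 in 2 of them, against 7.8% of all genes. The proton pump subunits Atp6v1b1 and Atp6v0a4 had changes of 0.32 and 0.42, and the channel gene Aqp6 had a change of -0.08. In each of these genes the groups did not overlap, as in 15.2% of all genes. The defining intercalated cell markers Slc4a1, Slc26a4 and Foxi1 were not analysed here. The mean of the 9 measured principal cell markers, Aqp2 included, was higher too. It ran from 7.12 to 7.19 in vehicle and from 7.70 to 7.77 in dDAVP arrays. The part of either cell type in the Cldn8 difference was not tested. In RNA from a whole culture, a change in the number of cells of a type and a change in RNA per cell cannot be told apart.

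Cldn3 and Cldn9, both barrier-type claudins, had lower values with dDAVP. Cldn3 measured 11.63, 11.75 and 11.69 in vehicle cells and 11.48, 11.48 and 11.62 in dDAVP cells. These groups did not overlap, and the fold was 0.892 (95% interval 0.801 to 0.993, limma adjusted p = 0.597). Cldn9 measured 9.39, 9.38 and 9.38 in vehicle and 9.17, 9.22 and 9.27 in dDAVP cells, again without overlap. Its fold was 0.893 (0.815 to 0.978, adjusted p = 0.502). Neither gene passed. With arrays scaled to the hybridisation controls, which moved the median change of the probe sets to 0.15, the log2 change was -0.02 in both genes.

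Further probe sets of these genes gave similar values. All 4 Cldn3 probe sets were lower, by log2 changes from -0.23 to -0.15. In 3 of them the groups did not overlap, as in 13.4% of all probe sets. The dimmest of the 4 had the smallest p, with 10.56, 10.51 and 10.58 in vehicle and 10.38, 10.25 and 10.32 in dDAVP cells (change -0.23 ± 0.061, limma adjusted p = 0.352). Both Cldn9 probe sets had a change of -0.16, and in both the groups did not overlap (all probe sets: 13.4%). Probe sets of a gene are read from the same RNA, so they repeat the measurement and not the culture.

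Of the 10 claudins, Cldn3, Cldn8 and Cldn9 (3 genes) had groups without overlap, against 15.2% of all genes. The unadjusted limma p was below 0.05 in the same 3, against 7.8% of all genes. Each of the remaining 7 claudins had overlapping groups. Cldn2 had the next largest change at 0.19 ± 0.093 (limma adjusted p = 0.688), with 4.90, 4.68 and 4.64 in vehicle and 5.00, 4.79 and 5.00 in dDAVP cells, which overlapped. Cldn4 was at 11.36, 11.35 and 11.38 in vehicle and 11.38, 11.38 and 11.47 in dDAVP cells. Its fold of 1.03 had a 95% interval of 0.940 to 1.13. The other folds were 0.983 (0.900 to 1.07) for Cldn7, 0.962 (0.879 to 1.05) for Cldn6, 1.02 (0.936 to 1.12) for Cldn12, 0.991 (0.821 to 1.2) for Cldn1 and 1.04 (0.864 to 1.25) for Cldn10.

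Some of the claudin genes are neighbours in the genome. In the RefSeq gene table (GRCm38.p6), Cldn3 and Cldn4 lie next to each other on chromosome 5, and Cldn6 and Cldn9 on chromosome 17. The log2 changes were -0.17 in Cldn3 and 0.04 in Cldn4, and -0.06 in Cldn6 and -0.16 in Cldn9. Taken within each array, Cldn3 minus Cldn4 changed by -0.21 and Cldn6 minus Cldn9 by 0.11. An exact two-sided permutation test over the 6 arrays gave p = 0.1 for each pair. That is the smallest p possible with 6 arrays, so the test cannot decide whether neighbours differed in their change. These genes also stood out only once their values were known.

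**Figure D4:**
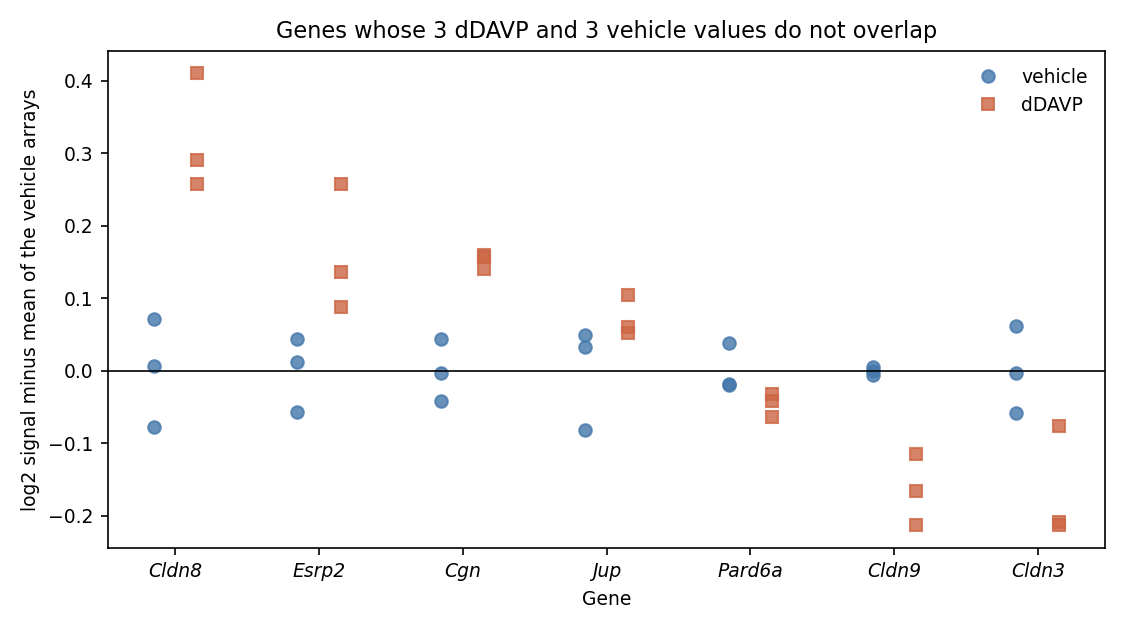
Log2 signal of each array minus the mean of the vehicle arrays for the 7 genes whose 3 vehicle values (circles) and 3 dDAVP values (squares) do not overlap. Cldn8, Esrp2, Cgn and Jup lie above the vehicle values and Pard6a, Cldn9 and Cldn3 below them, and none of the 7 passed the test.

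The sequence upstream of these neighbouring and bright claudins is shown because cAMP, the messenger of the V2 receptor, acts on transcription through CREB, which binds the cAMP response element (CRE). The table of RefSeq promoters (GRCm38.p6) held 25 of the 38 members in 39 windows. Each window below is the 250 bases before an annotated start, printed 5′ to 3′ on the gene's strand. Capitals mark the full CRE TGACGTCA, the short CRE TGACG or its reverse complement CGTCA, both of which lie inside the full CRE, and the E-box CAGGTG or its reverse complement CACCTG, a site of SNAI and ZEB repressors. Both strands were searched. The Cldn3 window is chr5:134985964-134986213 (+ strand) and that of Cldn4 is chr5:134946935-134947184 (- strand). The Cldn6 window is chr17:23679115-23679364 (+ strand). Of the windows listed for Cldn7, chr11:69965171-69965420 (+ strand) holds the CRE and is shown.
Cldn3: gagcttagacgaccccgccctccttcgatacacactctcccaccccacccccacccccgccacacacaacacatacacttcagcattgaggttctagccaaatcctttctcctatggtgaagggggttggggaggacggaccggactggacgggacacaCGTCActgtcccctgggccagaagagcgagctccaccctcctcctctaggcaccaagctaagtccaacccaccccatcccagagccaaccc
Cldn4: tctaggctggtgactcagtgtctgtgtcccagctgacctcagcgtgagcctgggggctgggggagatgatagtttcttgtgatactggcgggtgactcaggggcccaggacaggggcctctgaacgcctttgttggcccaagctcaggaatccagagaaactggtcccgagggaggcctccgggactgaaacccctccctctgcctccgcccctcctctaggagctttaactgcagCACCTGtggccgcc
Cldn6: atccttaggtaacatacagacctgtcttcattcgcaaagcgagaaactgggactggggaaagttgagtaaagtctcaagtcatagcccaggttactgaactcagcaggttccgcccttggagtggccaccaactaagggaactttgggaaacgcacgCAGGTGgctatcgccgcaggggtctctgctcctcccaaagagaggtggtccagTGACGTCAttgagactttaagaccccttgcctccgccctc
Cldn7: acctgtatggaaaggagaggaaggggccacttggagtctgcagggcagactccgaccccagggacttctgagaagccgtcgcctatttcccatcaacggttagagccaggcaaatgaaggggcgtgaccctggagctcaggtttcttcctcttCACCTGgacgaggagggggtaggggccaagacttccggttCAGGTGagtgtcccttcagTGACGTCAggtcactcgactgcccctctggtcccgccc

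The full CRE begins 40 bases before the start in Cldn6 and 38 bases before it in Cldn7. The log2 changes of these genes were -0.06 and -0.02. Cldn3 holds a short CRE that begins 91 bases before the start, and in the Cldn4 window neither form occurs (0 matches). Among all 32851 windows of 250 bases in the table, 1.55% held the full CRE, 17.8% the short CRE and 17.2% the E-box. Among the 39 windows of members these shares were 7.69% (3 windows, of Cldn6, Cldn7 and Pard6a), 25.6% and 33.3%. A match describes letters in the window and no binding was measured. Cldn8 and Cldn9 are not among the 25.

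Of the 7 other tight junction genes, 1 had an unadjusted p below 0.05, where 7.8% of all genes did. This was Cgn, the gene of cingulin, a plaque protein that links the strands to actomyosin. It measured 8.86, 8.91 and 8.82 in vehicle cells and 9.019, 9.002 and 9.021 in dDAVP cells. The groups did not overlap, and the fold was 1.11 (95% interval 1.02 to 1.22, limma adjusted p = 0.539). A second, dimmer Cgn probe set had a change of -0.08 ± 0.092 (adjusted p = 0.909), the opposite sign. With both probe sets averaged the change was 0.04, and with scaling to the hybridisation controls it was 0.30.

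The genes of proteins in or beside the strands, other than claudins, showed no such separation. Ocln, which encodes occludin, was at 9.13, 8.98 and 9.10 in vehicle and 9.15, 9.01 and 8.97 in dDAVP cells (fold 0.982, 95% interval 0.874 to 1.1). Marveld2, which encodes tricellulin of the tricellular contacts, had a fold of 0.969 (0.838 to 1.12). Its relative Marveld3 had a fold of 1.04 (0.893 to 1.22), with vehicle values spread from 8.35 to 8.72. F11r, the gene of JAM-A, had a fold of 1.05 (0.953 to 1.15).

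Of the ZO scaffold genes, Tjp1 (ZO-1) had a fold of 0.956 (0.864 to 1.06), with 9.90, 9.80 and 9.82 in vehicle and 9.84, 9.77 and 9.72 in dDAVP cells. Tjp3 (ZO-3) had a fold of 1.05 (0.931 to 1.18), with 8.63, 8.87 and 8.70 in vehicle and 8.79, 8.79 and 8.83 in dDAVP cells. In both genes the groups overlapped. The limma adjusted p of the 6 genes of this group other than Cgn was 0.864 or higher.

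The adherens junction genes were the brightest of the roles, with a median signal of 12.22. An unadjusted p below 0.05 in limma occurred in 0 of 6, beside 7.8% of all genes. Cdh1, the gene of E-cadherin, had the largest change, at -0.13 ± 0.082 log2 units (SE, limma adjusted p = 0.780). Its values were 11.98, 11.72 and 11.86 in vehicle and 11.81, 11.69 and 11.68 in dDAVP cells, so the groups overlapped through vehicle replicate 2. Cdh16, the gene of the kidney-specific cadherin, was at 12.41, 12.46 and 12.38 in vehicle and 12.43, 12.42 and 12.37 in dDAVP cells. Its fold of 0.993 had an interval of 0.905 to 1.09.

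The catenins, partners of the cadherins, had narrow intervals too. Ctnnb1 (beta-catenin) was the brightest member at a mean of 12.47 and had a fold of 1.02 (95% interval 0.930 to 1.12). Ctnna1 (alpha-catenin) had a fold of 0.980 (0.870 to 1.1) and Ctnnd1 (p120 catenin) 1.03 (0.920 to 1.14). Epcam, an adhesion molecule that stabilises claudins, had a fold of 0.993 (0.911 to 1.08). Its vehicle values were 12.44, 12.49 and 12.48 and its dDAVP values 12.47, 12.46 and 12.46. The 4 Ctnna1 probe sets did not share a sign. The dimmest of them, at a mean of 2.61 and below the olfactory receptor percentile, had a change of 0.21 with an unadjusted p of 0.0340 and an adjusted p of 0.573 in limma.

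All 7 polarity genes had intervals within a 1.2-fold change, beside 61.8% of all genes. An unadjusted p below 0.05 in limma occurred in 0 of 7, beside 7.8% of all genes. Of the Crumbs complex, Crb3, its apical membrane protein, had a fold of 1.05 (95% interval 0.938 to 1.18). The scaffold genes Mpp5 (PALS1) and Patj had folds of 0.990 (0.885 to 1.11) and 1.03 (0.939 to 1.14). Of the PAR complex, the scaffold Pard3 had a fold of 0.945 (0.847 to 1.05) and the kinase Prkci (atypical protein kinase C iota) 0.959 (0.874 to 1.05).

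The adaptors of that kinase differed little. Pard6b had a fold of 1.03 (0.921 to 1.16). Pard6a was at 6.98, 7.03 and 6.98 in vehicle and 6.96, 6.93 and 6.95 in dDAVP cells. These groups did not overlap, yet the change was -0.05 ± 0.055 (SE, limma adjusted p = 0.909). The median change of the 7 polarity genes was -0.01.

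The splicing regulators Esrp1 and Esrp2 direct the epithelial isoforms of adhesion and receptor genes. Esrp2 measured 9.42, 9.32 and 9.39 in vehicle and 9.63, 9.51 and 9.46 in dDAVP cells, without overlap. Its change was 0.16 ± 0.068 (SE, unadjusted p = 0.0465, limma adjusted p = 0.617). A second Esrp2 probe set, at a lower level, had a change of 0.03 ± 0.089. Averaging both gave 0.09, and scaling to the hybridisation controls gave 0.31. Esrp1 was at 9.62, 9.63 and 9.56 in vehicle and 9.57, 9.72 and 9.59 in dDAVP cells (fold 1.02, 95% interval 0.916 to 1.13).

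No desmosome gene had an unadjusted p below 0.05 in limma (0 of 6, beside 7.8% of all genes). Dsp, the gene of desmoplakin that binds keratin filaments, had the lowest value of the group at -0.16 ± 0.079 log2 units (SE, limma adjusted p = 0.684). It measured 11.69, 11.42 and 11.59 in vehicle and 11.40, 11.44 and 11.38 in dDAVP cells, and vehicle replicate 2 lay inside the dDAVP range. All 3 Dsp probe sets had negative values, from -0.22 to -0.16.

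The desmosomal cadherins followed at smaller sizes. Dsg2 (desmoglein 2) had a fold of 0.971 (95% interval 0.860 to 1.1) and Dsc2 (desmocollin 2) 0.933 (0.827 to 1.05). All 6 Dsg2 probe sets had negative values, from -0.12 to -0.04. The groups did not overlap in 1 of them (all probe sets: 13.4%). None of the 6 passed in limma (all probe sets: 0.216%), and 0 had an unadjusted p below 0.05 (all probe sets: 7.98%). Of the plaque proteins, Pkp2 (plakophilin 2) had a fold of 0.976 (0.881 to 1.08) and Pkp3 1.08 (0.969 to 1.2). Jup, the gene of plakoglobin, which serves desmosomes and adherens junctions, was at 8.95, 8.93 and 8.82 in vehicle and 8.96, 8.95 and 9.01 in dDAVP cells. Its groups did not overlap and its change was 0.07 ± 0.062 (limma adjusted p = 0.860).

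A total of 80 probe sets named a member. In limma 0 of the 80 passed, where 0.216% of all 28225 probe sets did. The unadjusted p was below 0.05 in 9 of the 80, against 7.98% of all probe sets. Several probe sets were available for 23 members. They shared a sign in 15 members and differed in sign in 8, namely Cldn12, Cgn, Ctnna1, Epcam, Crb3, Pard3, Mpp5 and Patj.

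**Figure D5:**
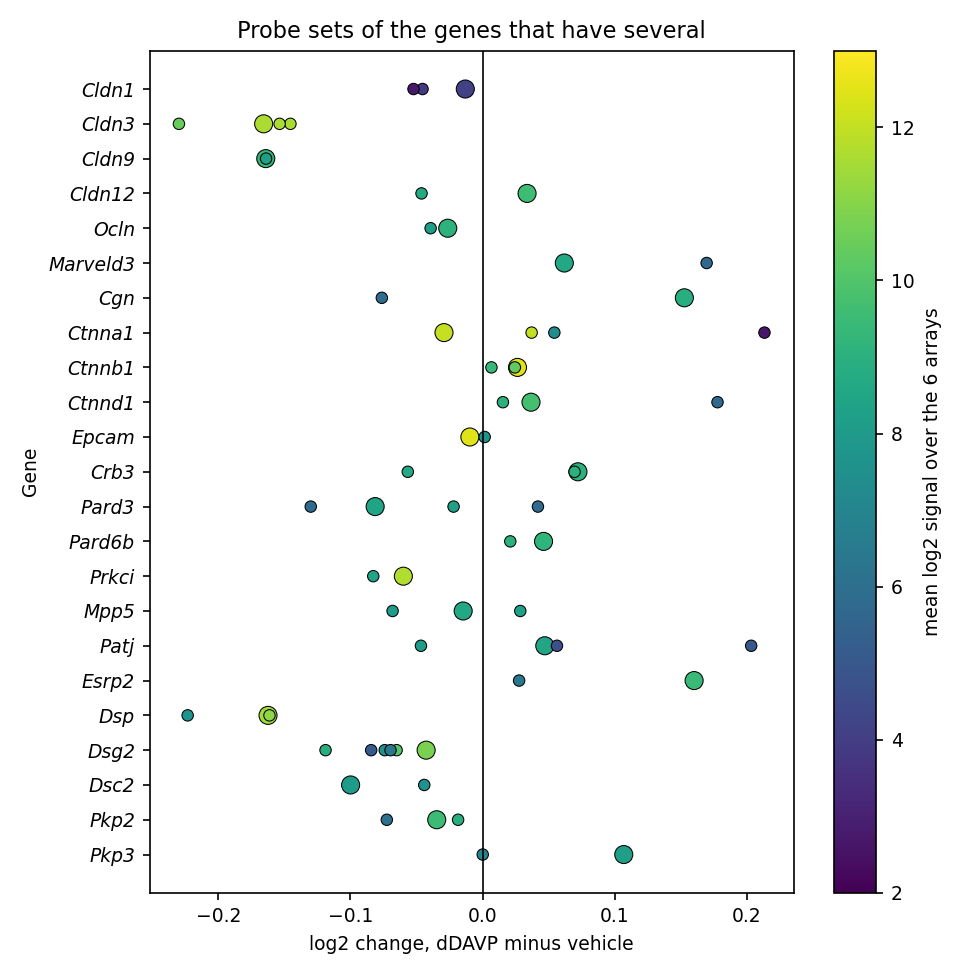
Log2 change (dDAVP minus vehicle) of every probe set of the 23 genes with several, coloured by mean log2 signal over the 6 arrays. The larger point is the brightest probe set of the gene, and all 4 of Cldn3, all 3 of Dsp and all 6 of Dsg2 lie below 0.

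Other genes of the same structures also did not pass. A further 137 genes came from 6 lists (tight junction, adherens junction, polarity, desmosome and keratin, epithelial regulators, mesenchymal markers). Of them 100 were measured and 0 passed in limma, where 0.291% of all genes did. The unadjusted p was below 0.05 in 10 (all genes: 7.8%). Of these, 6 were higher (all genes: 5.51%) and 4 were lower (all genes: 2.3%). The median change of the 100 was 0.01. The genes named below from these lists are the 3 with the smallest p of a list. Krt19, a keratin of simple epithelia, measured 11.25, 11.28 and 11.27 in vehicle and 11.56, 11.46 and 11.51 in dDAVP cells. Its change of 0.24 ± 0.057 did not pass (limma adjusted p = 0.281), but it did with the prior that follows signal level (adjusted p = 0.0292). Krt7 and Krt18 had changes of 0.14 ± 0.057 and 0.13 ± 0.059. The groups did not overlap in 4 of the 10 measured genes of the desmosome and keratin list, these 3 keratin genes included. This was so in 15.2% of all genes.

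Among adherens junction genes, Lima1, an actin-binding partner of the cadherin complex, had a change of 0.26 ± 0.065 (limma adjusted p = 0.308). It measured 8.99, 9.07 and 8.96 in vehicle and 9.20, 9.26 and 9.34 in dDAVP cells, without overlap. Nectin3, a nectin adhesion receptor, had a change of 0.18 ± 0.075 on its brightest probe set, while its dimmer probe sets ran from -0.08 to 0.17. Cdh6, with a mean of 3.31, was below the olfactory receptor percentile.

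Among further tight junction genes, the smallest p-values belonged to negative changes. Amotl2, an angiomotin family scaffold, had a change of -0.21 ± 0.066 (limma adjusted p = 0.461), with 10.26, 10.34 and 10.34 in vehicle and 10.19, 10.10 and 10.02 in dDAVP cells. Shroom3, a regulator of apical actomyosin, had a change of -0.19 ± 0.061 on its brightest probe set, while its 3 dimmer probe sets had changes of -0.0038 to 0.03. Cxadr, an adhesion receptor of tight junctions, had a change of -0.25 ± 0.087 (adjusted p = 0.502). All 4 of its probe sets had negative values.

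Of the further polarity genes, 0 of 20 had an unadjusted p below 0.05 in limma, beside 7.8% of all genes. Those with the smallest p were Crb1 (0.16 ± 0.10), Frmd6 (0.09 ± 0.063) and Rab11a (0.09 ± 0.059). Of the epithelial regulators, the grainyhead factor Grhl1 had a change of 0.21 ± 0.071 (limma adjusted p = 0.501), with 6.55, 6.42 and 6.60 in vehicle and 6.70, 6.81 and 6.69 in dDAVP cells, while Ovol2 (0.28 ± 0.17) and Elf3 (0.09 ± 0.059) had larger p-values. Of 7 measured mesenchymal markers, 0 had an unadjusted p below 0.05 in limma, beside 7.8% of all genes. The changes were 0.17 ± 0.11 for S100a4, 0.13 ± 0.087 for Fn1 and -0.13 ± 0.12 for Snai1. The mean level of these 7 markers ran from 5.62 to 5.66 in vehicle and from 5.62 to 5.68 in dDAVP arrays.

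Markers of other cell types were few in the table. The measured marker of the thick ascending limb (Slc12a1) and that of endothelium (Cdh5) were not above the olfactory receptor percentile, with means of 2.93 and 3.10. Of 3 proximal tubule markers 2 were above it, Lrp2 (8.30) and Kap (5.08), and Aqp1 (3.43) was not. Of 2 fibroblast markers Col1a1 (3.63) was above it and Col3a1 (2.75) was not. Of 3 leukocyte markers 2 were above it, Cd68 (5.56) and Adgre1 (3.57), and Ptprc (3.21) was not. Cd68 had a change of 0.20 ± 0.079 without overlap (unadjusted p = 0.0383, limma adjusted p = 0.593). All 9 measured principal cell markers were above it, as were 11216 of all 12364 genes. Of the 9, 2 passed, where 0.291% of all genes did. These were Aqp2 and Avpr2, which rose with dDAVP (limma adjusted p = 1.66e-07 and 0.0271).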

How the data were processed

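Total RNA of 6 cultures was measured on 6 arrays, 3 per group. The values the authors deposited are log2 signals, a single one for every probe set on every array. Affymetrix Expression Console 1.1, RMA and MAS5 appear in the submitters' processing notes without a role, so the method behind the values is unknown. The 28287 rows include 62 control probe sets, which were used only for scaling. Symbols came from the platform annotation, and probe sets with several symbols (611) or none (4517) named no gene. All 38 members matched RefSeq by Entrez ID.

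Groups came from the sample titles. All 28225 remaining probe sets entered 1 fit in limma 3.58.1 (R 4.3.3; lmFit, eBayes), with Benjamini-Hochberg adjustment over all and a threshold of 0.05. The code was tested on simulated data. Named genes were all 38 members, Aqp2, and of the wider lists the claudins and the genes that passed or the 3 with the smallest p. The measured mesenchymal markers and markers of other cell types were named too, and of the principal cell markers those that passed. The cell type markers given with a change or p-value were chosen after their values were seen. The members and lists were chosen with earlier results of these data known. Motifs were searched in RefSeq windows of 250 bases. The number of arrays limits the precision. Alternatives covered scaling, filters, priors, probe set choice, the replicate number and each array left out. Figures were drawn with matplotlib 3.10.9.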

Additional observations from a re-analysis of the deposited data

How the results depend on the processing

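Against the count of 0 members changed in limma, 1 member (Cldn8) passed with arrays scaled to the hybridisation controls and 1 with a trended prior, and 0 passed under the other 16 alternatives. Scaling to the hybridisation controls took the median over all probe sets from 0.0039 to 0.15, gave 282 changed probe sets in place of 61 and 18 members without overlap in place of 7 (47.4% of members, beside 35.0% of all genes under that scaling), and moved the members' median from -0.01 to 0.14, which is -0.01 relative to all probe sets. It turned the sign of 17 members and left 3 negative. Scaling to the poly-A controls gave a members' median of -0.0339. The trended prior gave 146 changed probe sets and 1 changed gene of the wider lists, Krt19. Changed probe sets numbered 95 with only those above the median level and 23 at a threshold of 0.01. With 1 array left out they numbered 22 to 46, the members without overlap 7 to 17 (18.4% to 44.7% of members, beside 22.8% to 29.8% of all genes), and the members' median ran from -0.0183 (without dDAVP replicate 1) to 0.0146 (without vehicle replicate 1). The claudin order kept 8 of 10 places with a gene's probe sets averaged. Same-numbered cultures of the 2 groups had deviations that correlated at 0.20, 0.05 and -0.05. Those of unlike number correlated at -0.21 to 0.17. These few correlations cannot show whether same-numbered cultures were handled together. With the replicate number as a block, 24 probe sets and 0 members passed. Of the values of single members under alternatives, 599 moved by less than the spread between replicates and 39 by more, most of them with scaling to the hybridisation controls; the other 2 are the Cldn8 calls, and no called value turned its sign. The number of arrays and the dim Cldn10 and Cldn1 signals limit what can be seen.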
